A study of Arabidopsis thaliana with 24 samples.

Results

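LPA19, PSB27, AT1G22700 and AT1G49380 are nuclear genes of Arabidopsis thaliana for proteins that help to build the photosynthetic electron transport chain without being lasting parts of it. LPA19 and PSB27 act on photosystem II, AT1G22700 is annotated to photosystem I assembly and AT1G49380 to cytochrome c biogenesis. They are 4 of the 691 genes that could be named from array probes carrying exactly 1 gene, out of 3439 probes in all. The 4 were chosen by their difference between mutant and wild type in earlier results of these same data, out of a larger set of photosynthetic proteins. That difference is therefore described below for each of them and is not tested.

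Transcript levels were measured by array in total RNA of the sut2 mutant and of wild type (WT), both of the Wassilevskija ecotype. The labels say that the mutant lacks SUT2, a plasma membrane protein held to be a transporter or sensor of sucrose; the allele, tissue, age, growth conditions and dyes are not stated in the labels. The table has 12 columns for each group, numbered 1 to 12 in both, and nothing says that the columns came from separate plants, so their spread may be technical. The loss of SUT2 was not measured here, because no probe used was named for that gene.

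Photosystem II splits water and passes electrons through the plastoquinone pool to the cytochrome b6f complex, and photosystem I lifts them to ferredoxin. Each complex is put together in steps in the thylakoid membrane, and assembly factors bind partly built complexes, hold or mature single subunits and leave when the complex is ready. In photosystem II, proteins of the Psb27 type bind on the lumenal side during assembly and repair, before the manganese cluster works; LPA19 and PSB27 are both of this type, and loss of LPA19 is known for low accumulation of photosystem II. In photosystem I, factors of assembly help the reaction centre and its stromal subunits to join. Cytochrome c biogenesis attaches heme covalently to c-type cytochromes, which in the thylakoid include cytochrome f of the b6f complex.

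The deposited values are linear intensities with a column mean of 0.959 to 1.05. The column medians averaged 0.372 ± 0.032 for wild type and 0.256 ± 0.020 for the mutant (SD, n = 12 columns per group). Near these medians a probe of equal deposited intensity therefore stood higher among the probes of a mutant column. For bright probes this need not hold. The antenna gene LHB1B2 had 14.1 in wild type number 2 and 14.5 in mutant number 5, but normalized log2 levels of 3.82 and 3.57. Between 146 and 273 values of a column were listed at 0, but none of the values of the 4 genes was, and none was near the ceiling of 100. Columns with consecutive numbers in a group resembled each other (correlation of their deviations from the group mean 0.12 to 0.55 over all probes), and every column also resembled the same number of the other group. In limma across all probes, after quantile normalization, 34.8% of the probes had an adjusted p under 0.05, 18.8% as higher and 15.9% as lower in the mutant. All 4 genes were among them, 2 in each direction, and since that is how they were found nothing is read from it. The split of the calls moves with the scaling between columns: 648 probes were higher and 548 lower after quantile normalization, 173 and 1016 without normalization, and 1053 and 506 with columns set to a common median.

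The 4 genes did not move as a group, and in none of them were the normalized values of mutant and wild type free of overlap, as they were in 2.85% of all probes. The genes for both photosystem II factors lay on opposite sides, LPA19 higher and PSB27 lower in the mutant; the photosystem I gene AT1G22700 was higher and the cytochrome c gene AT1G49380 was lower. The lower pair was lower in the deposited intensities themselves, in all 12 numbers. For the higher pair, LPA19 and AT1G22700, the log2 differences were 0.52 and 0.68 after quantile normalization but 0.05 and 0.19 without it.

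**Figure D1:**
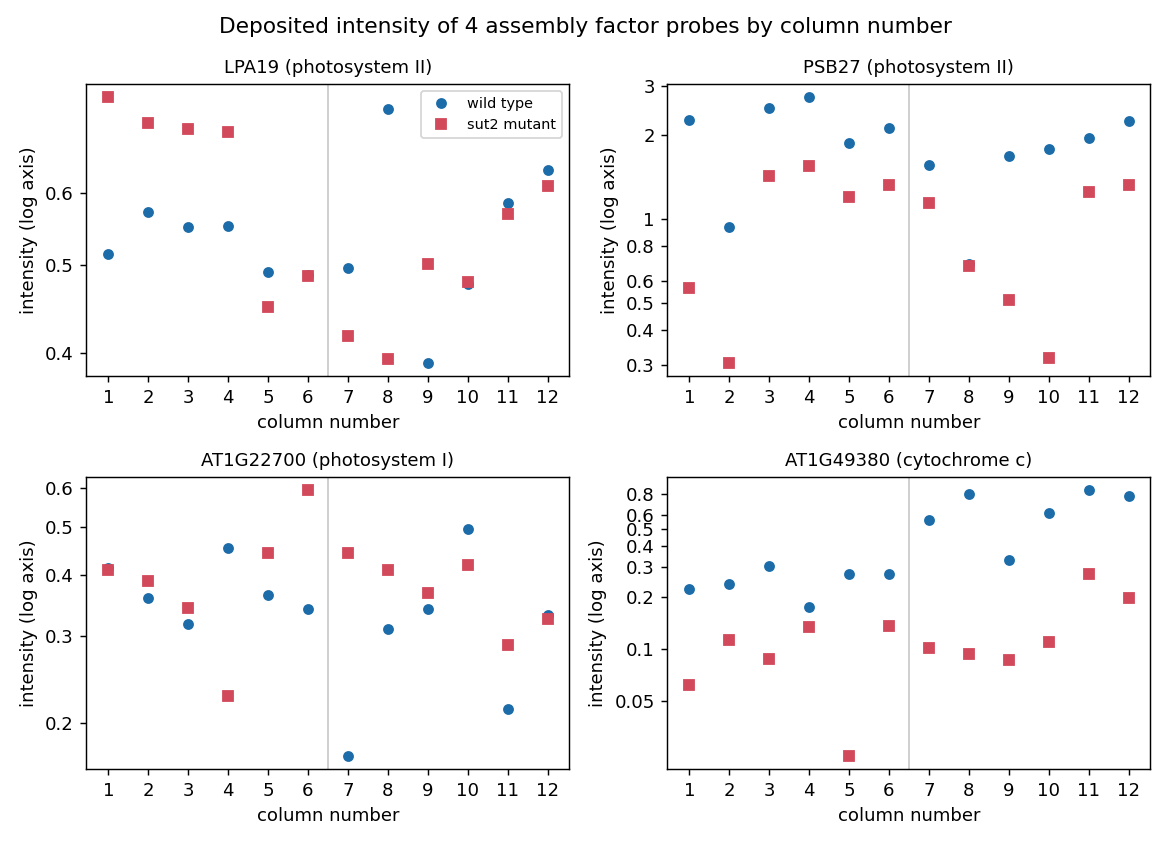
Deposited intensity (vertical axis, linear units on a log scale) of the 4 probes against the column number (horizontal axis), with circles for the 12 wild type columns, squares for the 12 sut2 mutant columns and a grey line between numbers 6 and 7. PSB27 and AT1G49380 lie lower in the mutant at all 12 numbers (at number 8 of PSB27 the points coincide, 0.689 and 0.676), while LPA19 lies higher in the mutant at 6 of 12 and AT1G22700 at 8 of 12.

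Of the photosystem II genes, LPA19 had deposited intensities of 0.391 at the lowest, 0.532 at the median and 0.742 at the highest in wild type, and of 0.394, 0.535 and 0.765 in the mutant. The groups overlapped over nearly their whole range, and the mutant was higher in 6 numbers and lower in 6. The highest mutant values were those of numbers 1 to 4 (0.765, 0.717, 0.706 and 0.699), all above wild type numbers 1 to 6, of which the highest was 0.572. In numbers 7 to 12 the highest value was a wild type one, 0.742 at number 8. Number 7 of wild type, beside it, had 0.496.

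After quantile normalization the mean log2 level of LPA19 was -1.16 ± 0.19 for wild type against -0.63 ± 0.27 for the mutant (SD, n = 12 columns each). The difference, mutant minus wild type, was 0.52 ± 0.11 (SE), or 1.44-fold, and the mutant was higher at 11 of 12 numbers, all but number 8. Of the wild type columns 10 lay below the lowest mutant column, and 7 mutant columns lay above the highest wild type column. The probe was among the steadiest of the array: its SD within groups was 0.23, lower in only 2.36% of probes, against a median of 0.58 over all probes. Its difference was nonetheless an ordinary one in size, since 22.2% of all probes had a higher one.

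How much of this remained depended on the scaling. Without normalization the log2 difference of LPA19 was 0.05 ± 0.13 (SE), with the median over all probes at -0.24. Relative to the median of all probes it was 0.28 without normalization or with median centring and 0.42 after quantile normalization. The 20 probes nearest to it in probe number had a median difference of 0.37, above that of the 3439 probes (0.10). With the median of those neighbours subtracted in each column the difference was 0.29 ± 0.11. Whether probe numbers follow position on the array is not given, and the part of position in the result was not tested.

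PSB27, the other photosystem II gene, had deposited intensities of 0.689 at the lowest, 1.91 at the median and 2.74 at the highest in wild type. In the mutant these were 0.305, 1.17 and 1.54. Of the wild type columns 10 lay above the highest mutant column, and 5 mutant columns lay below the lowest wild type one; the overlap came from wild type numbers 2 and 8, with 0.936 and 0.689.

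PSB27 varied in an uneven way within both groups. The same numbers were low in each: number 2 had 0.936 in wild type and 0.305 in the mutant, and number 8 had 0.689 and 0.676. The mutant was also low at numbers 1, 9 and 10 (0.566, 0.511 and 0.317), where wild type had 2.27, 1.68 and 1.77. The other 7 mutant columns lay between 1.14 and 1.54. Deviations from the group mean at the same number correlated with r = 0.42 over the 12 numbers, as a description; the same numbers resemble each other over all probes too.

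The mean normalized log2 level of PSB27 was 0.74 ± 0.66 for wild type against -0.12 ± 0.79 for the mutant (SD, n = 12 columns each), a difference of -0.86 ± 0.29 (SE), or 1.81-fold lower. It was lower at 11 of 12 numbers, all but number 8. The direction did not depend on the scaling: the difference was -1.06 ± 0.29 without normalization, -0.52 ± 0.30 with median centring and -0.95 ± 0.29 with cyclic loess. The 20 nearest probes went the other way, with a median difference of 0.57, which was above that of the neighbours of 99.2% of probes. With them subtracted the difference was -1.15 ± 0.27. Without numbers 2 and 8 in both groups, a choice made after seeing the values, it was -0.97 ± 0.25.

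**Figure D2:**
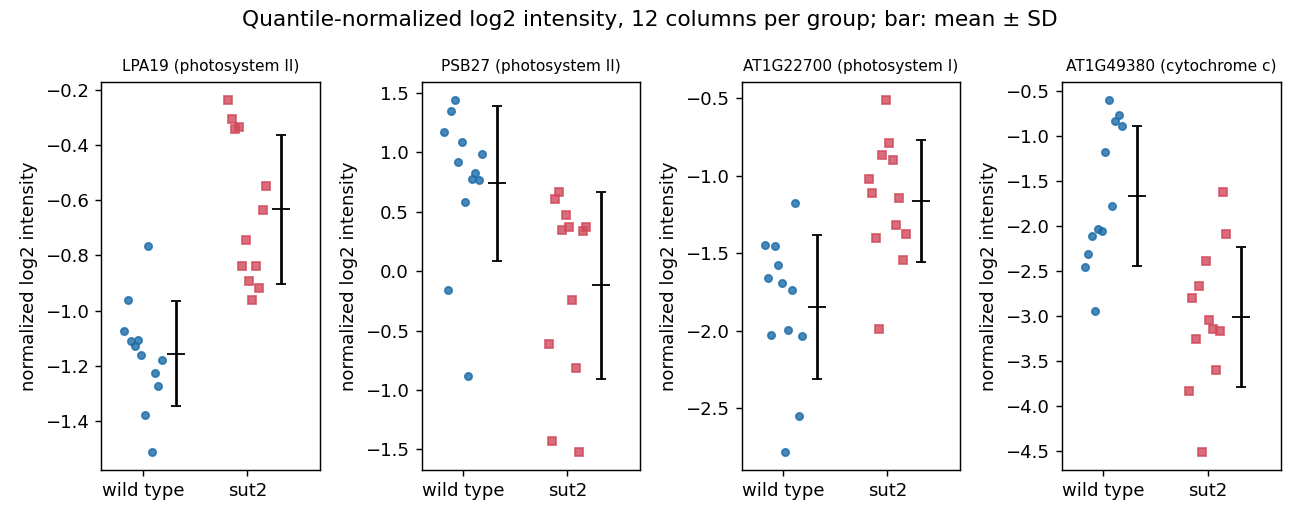
Quantile-normalized log2 intensity (vertical axis) of each of the 12 columns of wild type (circles) and of the sut2 mutant (squares) for the 4 genes, with the mean and SD of each group as a black bar beside the points. LPA19 and AT1G22700 lie higher and PSB27 and AT1G49380 lower in the mutant, and the groups overlap at all 4.

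AT1G22700, the photosystem I assembly gene, had deposited intensities of 0.171 at the lowest, 0.341 at the median and 0.496 at the highest in wild type. In the mutant these were 0.226, 0.398 and 0.594. The groups overlapped broadly, with 1 mutant column, number 6, above the highest wild type column, and the mutant was higher at 8 of 12 numbers. The lowest wild type values were those of numbers 7 and 11 (0.171 and 0.214), while the next numbers in wild type, 8 and 12, had 0.310 and 0.331. The lowest mutant value, 0.226 at number 4, likewise stood beside 0.342 at number 3.

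In normalized log2 levels AT1G22700 averaged -1.85 ± 0.47 for wild type against -1.16 ± 0.39 for the mutant (SD, n = 12 columns each), a difference of 0.68 ± 0.18 (SE) or 1.60-fold. The mutant was higher at 11 of 12 numbers, all but number 4. Without normalization the difference was 0.19 ± 0.16, and with the neighbouring probes subtracted 0.18 ± 0.18; the 20 nearest probes had a median difference of 0.51, which was above that of the neighbours of 97.7% of probes. Relative to the median of all probes the difference was 0.43 without normalization and 0.58 after quantile normalization. A difference of this size was not unusual, as 14.6% of all probes had a higher one.

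AT1G49380, the gene of cytochrome c biogenesis, showed the widest gap of the 4 genes. Its deposited intensities were 0.176 at the lowest, 0.316 at the median and 0.842 at the highest in wild type. In the mutant they were 0.0239, 0.106 and 0.273. The mutant was lower at all 12 numbers, 10 mutant columns lay below the lowest wild type column and 8 wild type columns above the highest mutant one. A lower value in bulk RNA cannot tell fewer cells with the transcript from less transcript per cell.

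The wild type columns of AT1G49380 lay apart by number. In numbers 1 to 6 they lay between 0.176 and 0.303, and in numbers 7 to 12 between 0.330 and 0.842, with no overlap. The mutant columns lay between 0.0239 and 0.137 in numbers 1 to 6 and between 0.0863 and 0.273 in numbers 7 to 12, overlapping, with the highest pair at numbers 11 and 12 (0.273 and 0.197). In normalized log2 levels wild type went from -2.32 ± 0.35 in numbers 1 to 6 to -1.01 ± 0.42 in numbers 7 to 12, and the mutant from -3.24 ± 0.80 to -2.78 ± 0.75 (SD, n = 6 columns each). What the division of the numbers stands for is not given.

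Over all columns the normalized log2 level of AT1G49380 was -1.66 ± 0.78 for wild type against -3.01 ± 0.78 for the mutant (SD, n = 12 columns each). The difference was -1.35 ± 0.31 (SE), or 2.54-fold lower, and only 5.70% of all probes had a lower one. The mutant was lower at 11 of 12 numbers, all but number 4. The difference was -1.94 ± 0.33 without normalization, -1.40 ± 0.31 with median centring and -1.39 ± 0.32 with cyclic loess. Its 20 nearest probes had a median difference of 0.05, close to that of all probes, and subtracting them gave -1.52 ± 0.27. The probe was dim in the mutant, and no measure of background was used, so its values there cannot be told from background.

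**Figure D3:**
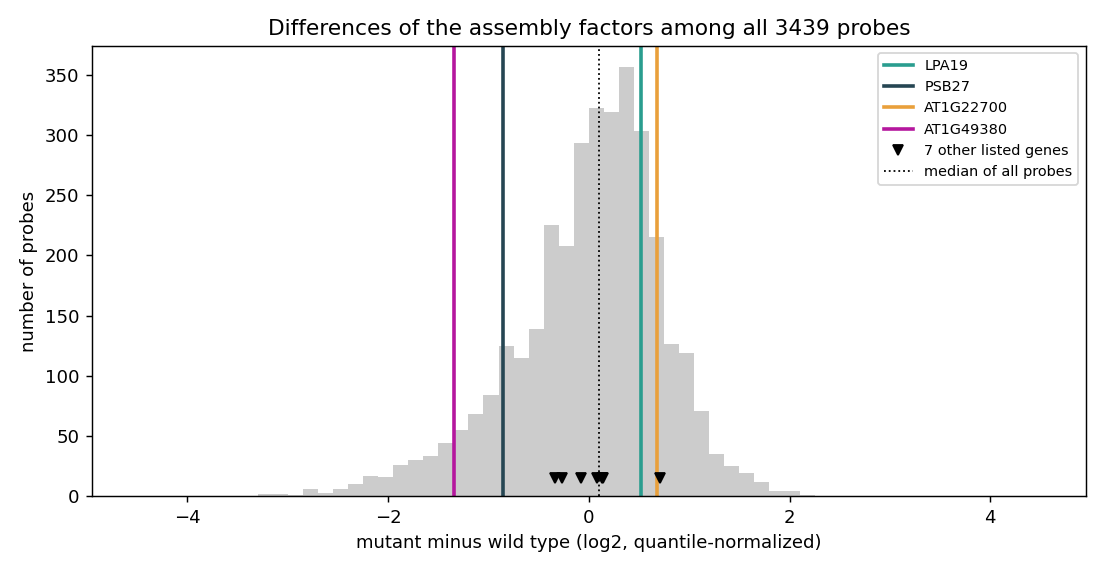
Number of probes (vertical axis) by the log2 difference between mutant and wild type after quantile normalization (horizontal axis) for all 3439 probes, with coloured lines at the 4 genes, a dotted line at the median of all probes (0.10) and triangles at the 7 other listed genes. AT1G49380 at -1.35 and PSB27 at -0.86 lie in the lower flank, and LPA19 at 0.52 and AT1G22700 at 0.68 in the body of the upper side.

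The 4 genes also differed in how even their difference was along the numbers. Averaging the normalized log2 levels of consecutive numbers within each group gave 6 sets per gene. LPA19 was higher in the mutant in all 6 sets, by 0.15 to 0.78 on the log2 scale, and AT1G22700 in all 6, by 0.04 to 1.55. AT1G49380 was lower in all 6 sets, with differences from -2.20 to -0.44. PSB27 was lower in 5 of 6, with -1.97 in numbers 9 and 10 and -1.52 in numbers 1 and 2, and was 0.21 higher in numbers 7 and 8.

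AT1G22700 and AT1G49380, which lay on opposite sides, both differed most in numbers 7 and 8 (1.55 and -2.20) and least in numbers 3 and 4 (0.04 and -0.44). LPA19 and PSB27 had their smallest differences in numbers 7 and 8 (0.15 and 0.21), and their largest in numbers 3 and 4 (0.78) and 9 and 10 (-1.97). By division, LPA19 differed by 0.62 ± 0.13 (SE) in numbers 1 to 6 against 0.42 ± 0.14 in numbers 7 to 12, and that of PSB27 was -0.96 ± 0.40 and -0.76 ± 0.40. For AT1G22700 these were 0.49 ± 0.22 and 0.87 ± 0.26, and for AT1G49380 -0.92 ± 0.34 and -1.77 ± 0.34. Each gene kept its direction in both divisions, and whether the differences between divisions exceed the error was not tested.

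**Figure D4:**
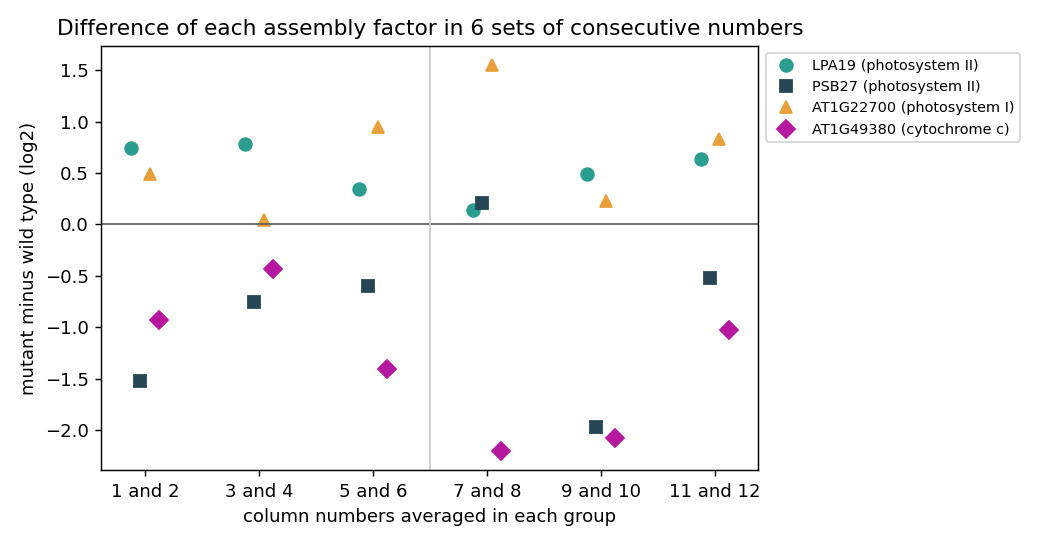
Mutant minus wild type difference in normalized log2 intensity (vertical axis) in the 6 sets of consecutive column numbers (horizontal axis), with 1 symbol for each of the 4 genes and a grey line between numbers 6 and 7. LPA19 and AT1G22700 lie above 0 and AT1G49380 below 0 in all 6 sets, while PSB27 crosses to 0.21 in numbers 7 and 8.

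Between columns of the same group the 4 genes did not vary together. Over the 24 columns the deviations from the group mean of LPA19 and PSB27, the pair acting on photosystem II, correlated with r = -0.15, and those of LPA19 and AT1G22700 with r = -0.14. The remaining pairs ranged from -0.40, for AT1G22700 and AT1G49380, to 0.05, for LPA19 and AT1G49380. These are descriptions over columns that share consecutive and common numbers. With the means of each division removed as well, LPA19 and AT1G49380 had r = 0.48 and LPA19 and PSB27 r = -0.33. In wild type alone r ranged from -0.52, for LPA19 and PSB27, to 0.24, for LPA19 and AT1G22700. The same pairs had 0.07 and -0.47 in the mutant alone.

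The named genes that varied most like each of them, out of 690 others, were found by the same correlation of deviations over 24 columns. For AT1G49380 these were AT3G32940 (r = 0.81), AT3G55070 (0.75) and AT1G27660 (0.74). Within divisions these values were 0.63, 0.60 and 0.57, so part of the likeness lay in the division of the numbers. All 3 were, like AT1G49380, lower in the mutant, with log2 differences of -1.36, -1.37 and -0.99 (limma adjusted p = 4.07e-05, 0.0019 and 0.016). For these and the similar genes named next, the shares called over all probes were 18.8% higher and 15.9% lower. Their differences and p-values are given only for quantile normalization and 24 separate columns. How they depend on the scaling or on averaging consecutive numbers is not given.

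For AT1G22700 the nearest were AT4G29890 (r = 0.71), AT4G37230 (0.69) and AT2G02590 (0.65), with little change within divisions (0.66, 0.70 and 0.67). Of these AT4G29890 and AT2G02590 rose in the mutant, by log2 values of 0.63 and 0.82 (limma adjusted p = 6.54e-05 and 9.45e-05). AT4G37230 had a difference of 0.52 that did not pass (limma adjusted p = 0.45).

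The nearest to PSB27 was AT1G17850 (r = 0.74, 0.77 within divisions), followed by AT3G54680 (0.58) and AT5G33390 (0.53). AT1G17850 and AT3G54680 had differences of -0.62 and -0.12, with the sign of PSB27, that did not pass (limma adjusted p = 0.43 and 0.83). AT5G33390 went the other way and rose by 0.73 in the mutant (limma adjusted p = 0.0020). For LPA19 they were AT4G31210 (r = 0.73), AT1G04330 (0.64) and AT4G02040 (0.63). AT4G02040 rose by 0.83 (limma adjusted p = 0.00058), while AT4G31210 and AT1G04330 had differences of -1.20 and -0.73 that did not pass (limma adjusted p = 0.19 and 0.20). The median absolute r with the 690 genes was 0.17 for PSB27, 0.20 for LPA19, 0.24 for AT1G22700 and 0.31 for AT1G49380.

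Few other genes of the same processes could be read. Of 50 further assembly factors of the photosystems and cytochromes listed for comparison, 2 had a probe of their own and 5 more appeared only on probes with several genes, which were not used. Of 47 listed subunits and antenna proteins of photosynthetic complexes, 5 had a probe of their own. None of the 14 tissue markers listed had one, so the tissue could not be checked.

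Neither of the 2 assembly factors passed in limma (also 0 of 2 at an unadjusted p under 0.05). AT1G54500, listed with the photosystem II factors, had deposited intensities of 1.84 at the lowest, 2.79 at the median and 4.52 at the highest in wild type, and of 1.95, 3.77 and 4.76 in the mutant. The mutant was higher at 10 of 12 numbers in these intensities, but the normalized log2 difference was 0.13 ± 0.18 (SE, limma adjusted p = 0.60), and 0.76 ± 0.16 with median centring (adjusted p = 0.00043). By division it was 0.54 (numbers 1 to 6) and -0.27 (numbers 7 to 12). CCB3, which takes part in maturing cytochrome b6, was listed at 0 in 6 wild type and 6 mutant columns and otherwise reached 0.121 and 0.0678, so its difference of -0.33 ± 0.49 (limma adjusted p = 0.63) rests on values at the floor.

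Among the 5 subunits and antenna proteins 1 rose and none fell, near the shares over all probes of 18.8% higher and 15.9% lower. At an unadjusted p under 0.05 limma also gave 0 lower. With the replicate block, cyclic loess, array weights or neighbouring probes subtracted it gave 1 lower, LHB1B2 (-0.27, -0.41, -0.40 and -0.48). The gene that rose was NdhN of the plastid NDH complex, which takes electrons from ferredoxin back to plastoquinone. Its deposited intensity had a median of 0.231 in wild type (0.216 to 0.510) and of 0.349 in the mutant (0.134 to 0.530), and its normalized log2 difference was 0.71 ± 0.20 (SE, limma adjusted p = 0.0079). The call was not made without normalization (0.20, adjusted p = 0.47) or in numbers 7 to 12 alone (0.49, adjusted p = 0.25, against 0.94 in numbers 1 to 6). With consecutive numbers averaged the difference stayed at 0.71 and also did not pass (adjusted p = 0.075, or 0.051 when those averages were also blocked by number). NdhS of the same complex was not listed but had a probe of its own. Its normalized log2 difference was 0.13 ± 0.13 (SE, limma adjusted p = 0.46), which did not pass.

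None of the photosystem subunits beside which the assembly factors work passed, also at an unadjusted p under 0.05. PSBW and PSBY of photosystem II had normalized log2 differences of 0.09 ± 0.10 and 0.15 ± 0.15 (limma adjusted p = 0.54 and 0.49), and PSAN of photosystem I of -0.08 ± 0.24 (adjusted p = 0.83). With median centring PSBW and PSBY passed as higher (0.78 and 0.66), and without normalization PSBW did (0.24, adjusted p = 0.040). The antenna protein LHB1B2, one of several near-identical chlorophyll-binding proteins that its probe may also read, had -0.27 ± 0.18 (adjusted p = 0.25), and 0.41 with median centring (adjusted p = 0.14). The median difference of the 7 listed genes was 0.09, against 0.10 over all 3439 probes.

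**Figure D5:**
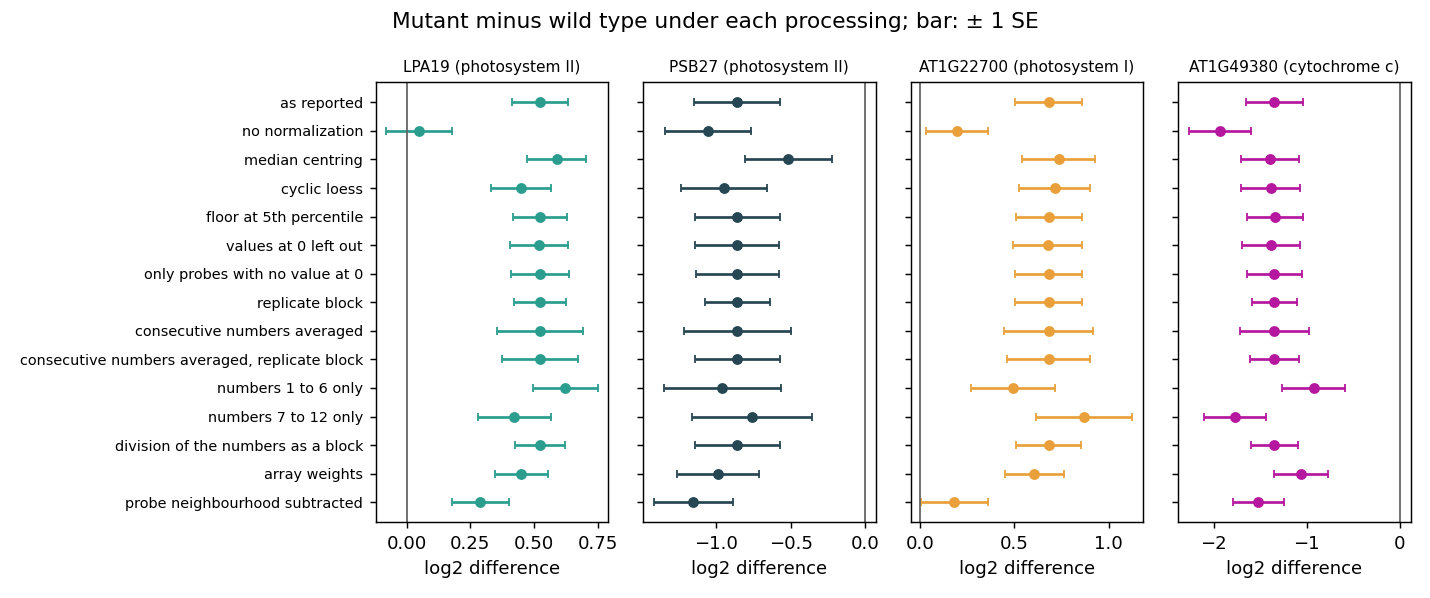
Mutant minus wild type log2 difference (horizontal axis) of the 4 genes under the processing reported and 14 alternatives (vertical axis), with the SE as bars and a grey line at 0. PSB27 and AT1G49380 stay below 0 under all of them, whereas LPA19 and AT1G22700 shrink to 0.05 and 0.19 without normalization and to 0.29 and 0.18 with neighbouring probes subtracted. Fits with a block, with consecutive numbers averaged or on probes with no value at 0 change only the SE.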

How the data were processed

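The authors deposited linear intensities in 24 columns, 12 per group by the titles in the labels; their image analysis, background correction and scaling are not given in the sources used. A floor was placed at the 1st percentile of positive intensities (0.00971) before taking log2 and quantile-normalizing the columns. Differences, mutant minus wild type, were fitted with limma (version 3.58.1, R 4.3.3) over all 3439 probes with group as the only term, two-sided, with Benjamini-Hochberg adjustment and a threshold of 0.05. Probe names came from an old platform annotation, updated through a table of the TAIR10.1 assembly (690 of 692 probes with 1 gene matched).

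The genes, lists and alternatives were chosen with earlier results of these data known. Named genes were the 4 members, the measured genes of the lists, and for each member the 3 genes with the highest r in deviations from group means. NdhS, which no list held, was named in addition. Photosystem II assembly and repair, photosystem I assembly and cytochrome assembly formed the assembly lists; photosystem subunits, b6f, plastocyanin, FNR and NDH subunits, plastid ATP synthase and antenna proteins the others. The tissue markers were those of root, flower, seed, phloem and leaf mesophyll.

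Same-numbered columns of the groups correlated in their deviations by more than 0.1 in 12 of 12 cases (0.14 to 0.40). Columns of different numbers were not compared between the groups. Whether the numbers pair the columns was therefore not tested, and no label says so. No 2 columns were identical. On simulated data (3439 probes, 24 separate columns, 200 changed) limma recovered 21.2%, 61.5% and 93.6% of changes of 0.5, 1 and 2 on the log2 scale, with 4.36% of calls false. The columns of the data are correlated by number, which this simulation leaves out, so its false share may not hold for them. It also changed only 200 probes, whereas 34.8% of the probes passed in the data. The shares recovered may therefore not hold for the data either. The number of columns limits the precision. A planned comparison of protein and promoter sequences was not made.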

Additional observations from a re-analysis of the deposited data

How the results depend on the processing

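Across 14 alternatives and 24 fits that each left out 1 column, no difference of the 4 genes changed sign. Fits with a block, with consecutive numbers averaged or on probes with no value at 0 left these differences as they were. Those fits could not change a sign. LPA19 and AT1G22700 moved by more than their SD within groups in 2 cases each: without normalization to 0.048 and 0.19, and with neighbouring probes subtracted, an alternative added after seeing the data, to 0.29 and 0.18 (log2). The cause was not tested. Leaving out 1 column gave 0.49 to 0.56 for LPA19, -1.01 to -0.73 for PSB27, 0.60 to 0.76 for AT1G22700 and -1.47 to -1.21 for AT1G49380. The replicate block, which pairs columns by number, leaves the differences as they are and gave SEs of 0.10, 0.22, 0.18 and 0.25 in the same order; it changed no call of the listed genes, and with it 827 probes were higher and 650 lower. With consecutive numbers averaged the SEs were 0.17, 0.36, 0.23 and 0.37.

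Over all probes, 648 higher and 548 lower became 173 and 1016 without normalization, 1053 higher with median centring, 185 and 264 with consecutive numbers averaged, 354 higher with these averages and the replicate block, and 305 and 358 in numbers 1 to 6 alone, against 571 and 528 in numbers 7 to 12 alone. The cause was not tested. Leaving out 1 column gave 580 to 673 higher and 504 to 553 lower. Of the 7 listed genes, 1 was higher in limma, 4 with median centring, and 0 with consecutive numbers averaged, with these averages and the replicate block or in numbers 7 to 12 alone (1 at an unadjusted p under 0.05 in each). Low intensities limit AT1G49380 and CCB3, since no detection measure was used. NdhN and AT1G22700 were also dim, with wild type medians of 0.231 and 0.341 against a mean wild type column median of 0.372.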
